A study of Mus musculus with 8 samples.

Results

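The clustered histone genes encode the bulk of the histone proteins around which DNA is wrapped. They were chosen by name, as every probe set whose annotated symbols include H1f, H2ac, H2bc, H3c or H4c followed by digits, and no measured value enters that rule. A probe set is the group of short probes that an Affymetrix array uses for a transcript. The rule found 35 of the 45101 probe sets in the deposited table, with 9 for linker histone H1, 4 for H2A, 9 for H2B, 8 for H3 and 5 for H4. The group itself was selected on earlier results from the same arrays, so the tests below describe these arrays and are not independent evidence for the group.

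The series holds 8 arrays of RNA from the dorsal skin of Balb/c mice, in a model of atopic dermatitis. Dinitrochlorobenzene (DNCB), a hapten that sensitises and inflames skin, was applied for 15 days. The DNCB group (n = 3) received the vehicle over the last 7 of those days, and the DNCB+HY209 group (n = 3) received a 5% HY209-PEG gel, HY209 being a compound known here only by its code name, over the same 7 days. The sham group (n = 2) is named by its titles and source names as skin without DNCB and without HY209, although the protocol fields of those samples carry the DNCB wording. All groups share the strain, and the labels give no age, sex or genetic change, and nothing in them states that each array is a different mouse. The p-values therefore measure the spread between these samples, which may be technical.

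Histone H1 binds the linker DNA between nucleosomes, and H2A, H2B, H3 and H4 form the nucleosome core. Most of the genes are present as many near-identical copies in gene clusters, and they are transcribed together when a cell enters S phase and copies its DNA. Their main messages end in a stem-loop bound by SLBP in place of a poly(A) tail, and some of the genes also give polyadenylated transcripts. The labels describe amplification from the 3′ end, a chemistry that usually starts at the poly(A) tail, so the signals may represent only part of the histone messages. The share that was captured was not tested.

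The 35 probe sets carry 56 symbols, of which 54 match the rule; the remaining symbols, H4f16 and H4bc24, came with them. In the gene table of build GRCm38.p6, 44 of the 56 genes lie on chromosome 13 between 21715711 and 23762386, and 8 lie on chromosome 3 between 96221072 and 96270192. H1f10, H1f8 and H4f16 lie on chromosome 6 and H1f7 lies on chromosome 15, so these lie outside both clusters; the first pair and H1f7 match the rule by name, and H4f16 came with the H4 probe sets. Only 18 of the probe sets are annotated with 1 symbol, and 17 carry several, up to the 13 H4 symbols shared by all 5 H4 probe sets. A value on such a probe set belongs to the family and not to any single gene. Probe sets of a family can also share targets, so their counts are not counts of independent genes. The identity of 1422947_at and 1422948_s_at is not settled: their symbols are all H4, whereas the gene table pairs their design accession with H3c1.

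Stretches of 120 bases directly before the start of transcription are shown for genes behind the probe sets that differed most from sham, chosen after their values were seen. Of the single-symbol probe sets, those for H1f2, H2ac19 and H2bc22 had the highest DNCB minus sham differences, and H3c14 is the gene that the table pairs with the design accession of the H3 probe set that differed most. The sequences are from RefSeq on GRCm38.p6, and capitals mark CCAAT, or its reverse complement ATTGG, and the longer motifs TATAAA and ATTTGCAT. H1f2 is at chr13:23738687-23738806 on the plus strand, H2ac19 at chr3:96240375-96240494 on the minus strand, H2bc22 at chr13:21787368-21787487 on the plus strand and H3c14 at chr3:96246565-96246684 on the plus strand. The gene table starts H2bc22 at 21787483, so the last bases of its stretch lie inside the gene as placed there.
H1f2: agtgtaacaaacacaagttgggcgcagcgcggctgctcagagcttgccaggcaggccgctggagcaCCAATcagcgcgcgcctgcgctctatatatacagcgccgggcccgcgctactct
H2ac19: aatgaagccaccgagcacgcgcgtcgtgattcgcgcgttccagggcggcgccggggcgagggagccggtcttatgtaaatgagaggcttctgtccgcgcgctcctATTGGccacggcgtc
H2bc22: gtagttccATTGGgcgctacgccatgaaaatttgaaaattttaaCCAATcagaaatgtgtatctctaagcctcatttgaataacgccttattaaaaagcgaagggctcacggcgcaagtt
H3c14: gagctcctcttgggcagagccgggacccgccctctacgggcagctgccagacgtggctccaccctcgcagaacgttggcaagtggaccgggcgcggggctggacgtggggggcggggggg

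The stretches of H1f2 and H2ac19 each hold 1 CCAAT match and that of H2bc22 holds 2, while the H3c14 stretch holds none of the 3 motifs. Over the full 300 bases, 250 before and 50 after the start, and on both strands, 52 promoters were found for 51 of the 56 genes. CCAAT was present in 41 of the 52 (78.85%), against 37.41% of all 32851 promoters of that length. It was in 12 of 12 H2A, 12 of 12 H2B and 10 of 10 H3 promoters, but in 3 of 12 H4 promoters. TATAAA was present in 24 of the 52 (46.15%), against 13.62% of all promoters. The octamer ATTTGCAT, known from H2B promoters as the site of the factor OCT1, was present in 4 of 12 H2B and 4 of 12 H2A promoters and in 15.38% of the 52, against 1.735% of all. No octamer match was found in the H1, H3 and H4 windows. A match is a description of the letters and not evidence of binding, and neighbouring clustered genes on opposite strands can share part of a window. Some sequences are also repeated. The 120-base stretch of H4bc24, which is counted under H2B, is identical to that of H2bc23, and those of H4c17 and H4c18 are shifted copies. H2bc6 enters with a pair of promoters, so the counts are not counts of distinct sequences.

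DNCB-treated skin gave higher histone signals than sham skin on a minority of the probe sets, and these came from every class. On the log2 scale, where 1 unit is a doubling, 12 of the 35 probe sets were higher on all 3 DNCB arrays than on both sham arrays, where 14.2% of all 45037 non-control probe sets did so. In the opposite direction 2 of the 35 had all DNCB arrays below both sham arrays, against 16.3% of all. The test, limma's moderated test with Benjamini-Hochberg adjustment over all 45037 and a threshold of 0.05, called 2 members higher and 0 lower; it called 0.442% of all probe sets, 150 higher and 49 lower. In bulk skin, a change in the number of cells that make a message and a change in the message per cell cannot be told apart.

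**Figure D1:**
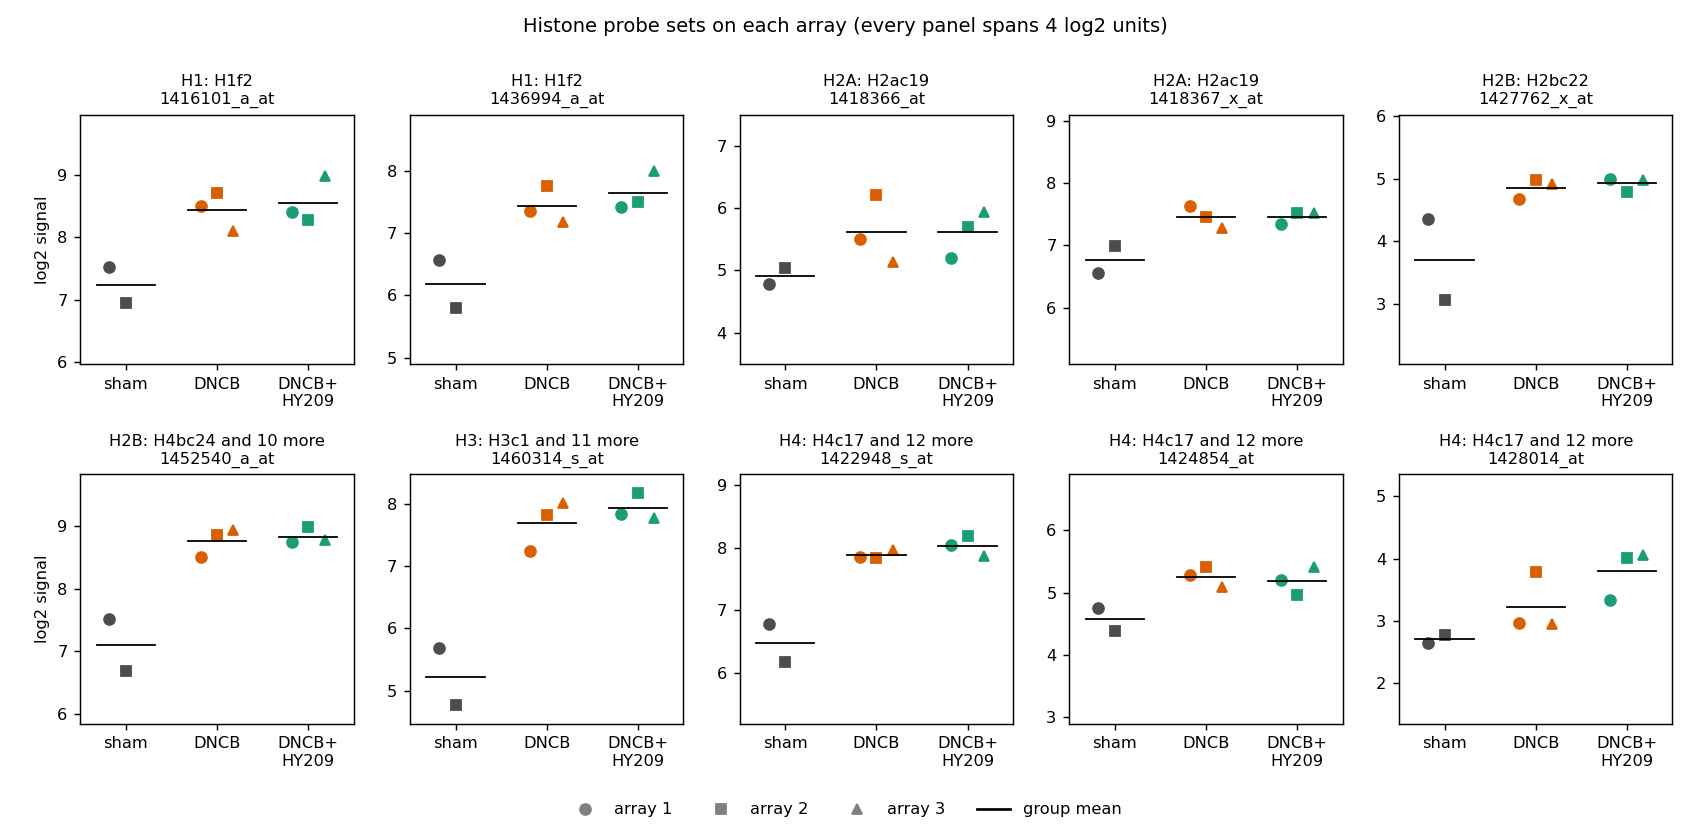
Log2 signal (vertical axis) of the 10 histone probe sets with the highest DNCB minus sham difference on each of the 8 arrays, by group; points are arrays, with the shape giving the array number, and lines are group means. Every panel spans 4 log2 units, and the panels were picked by this difference, so the separation of DNCB from sham is a description; the DNCB+HY209 points also lie above both sham points in all 10.

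Among the linker histones, H1f2, a widely expressed somatic linker histone, has 3 probe sets. Probe set 1416101_a_at read 7.52 and 6.95 on the sham arrays, 8.51, 8.71 and 8.11 on the DNCB arrays and 8.41, 8.28 and 8.98 on the DNCB+HY209 arrays. Probe set 1436994_a_at read 6.57 and 5.81 on the sham arrays, 7.35, 7.75 and 7.18 on the DNCB arrays and 7.42, 7.50 and 7.99 on the DNCB+HY209 arrays. On both, the sham arrays were the lowest and the treated groups overlapped each other. DNCB exceeded sham by 1.20 (SE 0.31, limma adjusted p = 0.157) on the former and by 1.24 (SE 0.31, limma adjusted p = 0.147) on the latter, so neither passed the threshold. With the spike-in covariate the differences were 0.85 and 0.81. The H1f2 probe set 1438204_at did not separate the groups: it read 4.76 and 4.80 on the sham arrays and 4.86, 4.45 and 4.80 on the DNCB arrays, a difference of -0.08 (SE 0.23). The probe sets of this gene therefore disagree.

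H1f4, another somatic linker histone, read 3.69 and 4.74 on the sham arrays and 4.20, 4.76 and 4.88 on the DNCB arrays, so the groups overlapped and the difference was 0.40 (SE 0.35). H1f10, a linker histone whose gene is not tied to replication, read 4.90 and 4.82 on the sham arrays and 5.09, 4.97 and 5.03 on the DNCB arrays. Those groups did not overlap, but the difference of 0.17 (SE 0.26) was smaller than its error. The germ-line linker histones, H1f6 and H1f7 of the testis and H1f8 of the oocyte, have 4 probe sets. Of these, 1430181_at for H1f7 was lower on every DNCB array, with 4.68 and 4.55 on the sham arrays and 4.20, 3.73 and 4.22 on the DNCB arrays (difference -0.56, SE 0.23, limma adjusted p = 0.346; -0.26 with the spike-in covariate). The other 3 differed by -0.35 to 0.07 and their arrays overlapped.

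Of the 4 H2A probe sets, all had a positive difference and 0 were called. H2ac19, a gene of the chromosome 3 cluster, has a pair of single-symbol probe sets built on the same design accession. Probe set 1418367_x_at read 6.56 and 6.98 on the sham arrays, 7.63, 7.46 and 7.29 on the DNCB arrays and 7.34, 7.52 and 7.52 on the DNCB+HY209 arrays. Probe set 1418366_at read 4.78 and 5.04 on the sham arrays, 5.51, 6.21 and 5.13 on the DNCB arrays and 5.20, 5.69 and 5.93 on the DNCB+HY209 arrays. Both separated sham from the treated groups, by 0.69 (SE 0.24, limma adjusted p = 0.295) and 0.71 (SE 0.34, limma adjusted p = 0.398). The former was 0.41 after quantile normalization, and the latter was 0.41 without DNCB array 2 and 0.17 with the spike-in covariate. Probe set 1438009_at, shared by 10 genes of the chromosome 13 cluster, read 11.51 and 9.89 on the sham arrays and 10.64, 11.06 and 11.49 on the DNCB arrays. Its DNCB values lay between its sham values, so the difference of 0.37 (SE 0.44) was within the spread of the sham arrays. The remaining one, 1438815_at, differed by 0.30 (SE 0.22) with overlapping arrays.

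Limma called 1 H2B probe set higher after DNCB. It is 1452540_a_at, shared by 11 genes of the chromosome 13 cluster, H2bc22 among them, and it read 7.51 and 6.69 on the sham arrays, 8.50, 8.85 and 8.93 on the DNCB arrays and 8.74, 8.99 and 8.77 on the DNCB+HY209 arrays. The lowest treated array lay above the higher sham array, and DNCB exceeded sham by 1.66 (SE 0.29, 3.17-fold, limma adjusted p = 0.0430). That call is close to the threshold: without the second sham array the difference was 1.25 and the limma adjusted p was 0.250, and without DNCB array 1, 2 or 3 it was 0.105, 0.118 or 0.0766. It was 0.0919 and 0.0630 without DNCB+HY209 array 2 or 3, 0.0963 with only the sham and DNCB arrays in the fit, 0.0630 with each array centred on its median, and 0.210 with the spike-in signal as a covariate.

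H2bc22 alone is named on 1427762_x_at, which has the same design accession as 1452540_a_at and is not independent of it. It read 4.35 and 3.06 on the sham arrays, 4.68, 4.98 and 4.92 on the DNCB arrays and 5.00, 4.80 and 4.98 on the DNCB+HY209 arrays, and the difference of 1.15 (SE 0.33, limma adjusted p = 0.203) did not pass. The second sham array was the lowest by more than 1 log2 unit, and the difference was 0.51 without it and 1.80 without the first sham array. Probe set 1418072_at, for H2bc8, H2bc6 and H2bc4, read 8.0 and 7.32 on the sham arrays, 7.89, 7.95 and 7.63 on the DNCB arrays and 8.11, 7.54 and 8.15 on the DNCB+HY209 arrays. It did not separate the groups (DNCB minus sham 0.16, SE 0.29), although H2bc8, H2bc6 and H2bc4 are also among the symbols of 1452540_a_at. The other 6 H2B probe sets differed by -0.41 to -0.01; 1455095_at for H2bc21 was the member of this class whose DNCB arrays all lay below sham (difference -0.38, SE 0.22).

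The strongest difference of the family was on an H3 probe set. Probe set 1460314_s_at, shared by 12 H3 genes of both clusters, read 5.68 and 4.78 on the sham arrays, 7.23, 7.82 and 8.02 on the DNCB arrays and 7.83, 8.16 and 7.77 on the DNCB+HY209 arrays. Every treated array exceeded both sham arrays by more than 1 log2 unit. DNCB exceeded sham by 2.46 (SE 0.33, 5.5-fold, limma adjusted p = 0.0185), the larger of the 2 called differences. Without the second sham array the difference was 2.01 with a limma adjusted p of 0.135, without DNCB array 2 the adjusted p was 0.0539, and with the spike-in signal as a covariate the difference was 2.23 with an adjusted p of 0.100.

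The other 7 H3 probe sets did not follow it. Probe set 1427864_at carries the same 12 symbols and read 2.53 and 2.48 on the sham arrays and 2.76, 2.53 and 2.48 on the DNCB arrays, a difference of 0.08 (SE 0.15). Probe set 1427863_at, for H3c10 and H3c2, read 4.79 and 4.93 on the sham arrays and 4.76, 4.75 and 4.80 on the DNCB arrays, and 1442051_at, shared by 8 H3 genes, read 4.19 and 3.90 on the sham arrays and 3.55, 3.90 and 3.95 on the DNCB arrays. Their differences were -0.09 (SE 0.20) and -0.24 (SE 0.21). H3c7 on 1431231_at was higher on every DNCB array by a small margin (0.26, SE 0.21), and the last 3 differed by -0.10 to 0.15 with overlapping arrays. No detection calls were analysed here, so which of these probe sets lie above background is not known.

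All 5 H4 probe sets carry the same 13 symbols, yet 3 were higher on every DNCB array and 2 were not. The identity of 1422947_at and 1422948_s_at as H4 is, as given above, not settled. Probe set 1422948_s_at read 6.79 and 6.18 on the sham arrays, 7.86, 7.83 and 7.97 on the DNCB arrays and 8.05, 8.18 and 7.88 on the DNCB+HY209 arrays. Its difference of 1.40 (SE 0.25, 2.64-fold) lay just outside the threshold, with a limma adjusted p of 0.0501, so it is the nearest member to be left uncalled. Over the alternatives tried, its adjusted p ran from 0.0320 to 0.302. Probe set 1424854_at read 4.76 and 4.38 on the sham arrays, 5.27, 5.40 and 5.09 on the DNCB arrays and 5.20, 4.96 and 5.41 on the DNCB+HY209 arrays (difference 0.69, SE 0.23). Probe set 1428014_at read 2.64 and 2.77 on the sham arrays, 2.97, 3.78 and 2.94 on the DNCB arrays and 3.33, 4.01 and 4.06 on the DNCB+HY209 arrays (difference 0.52, SE 0.29), and the difference was 0.25 without DNCB array 2 and -0.02 with the spike-in covariate. Those values differ among the arrays of a treated group by about as much as between the groups. The last pair, 1422947_at and 1431658_at, differed by -0.07 and -0.20.

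**Figure D2:**
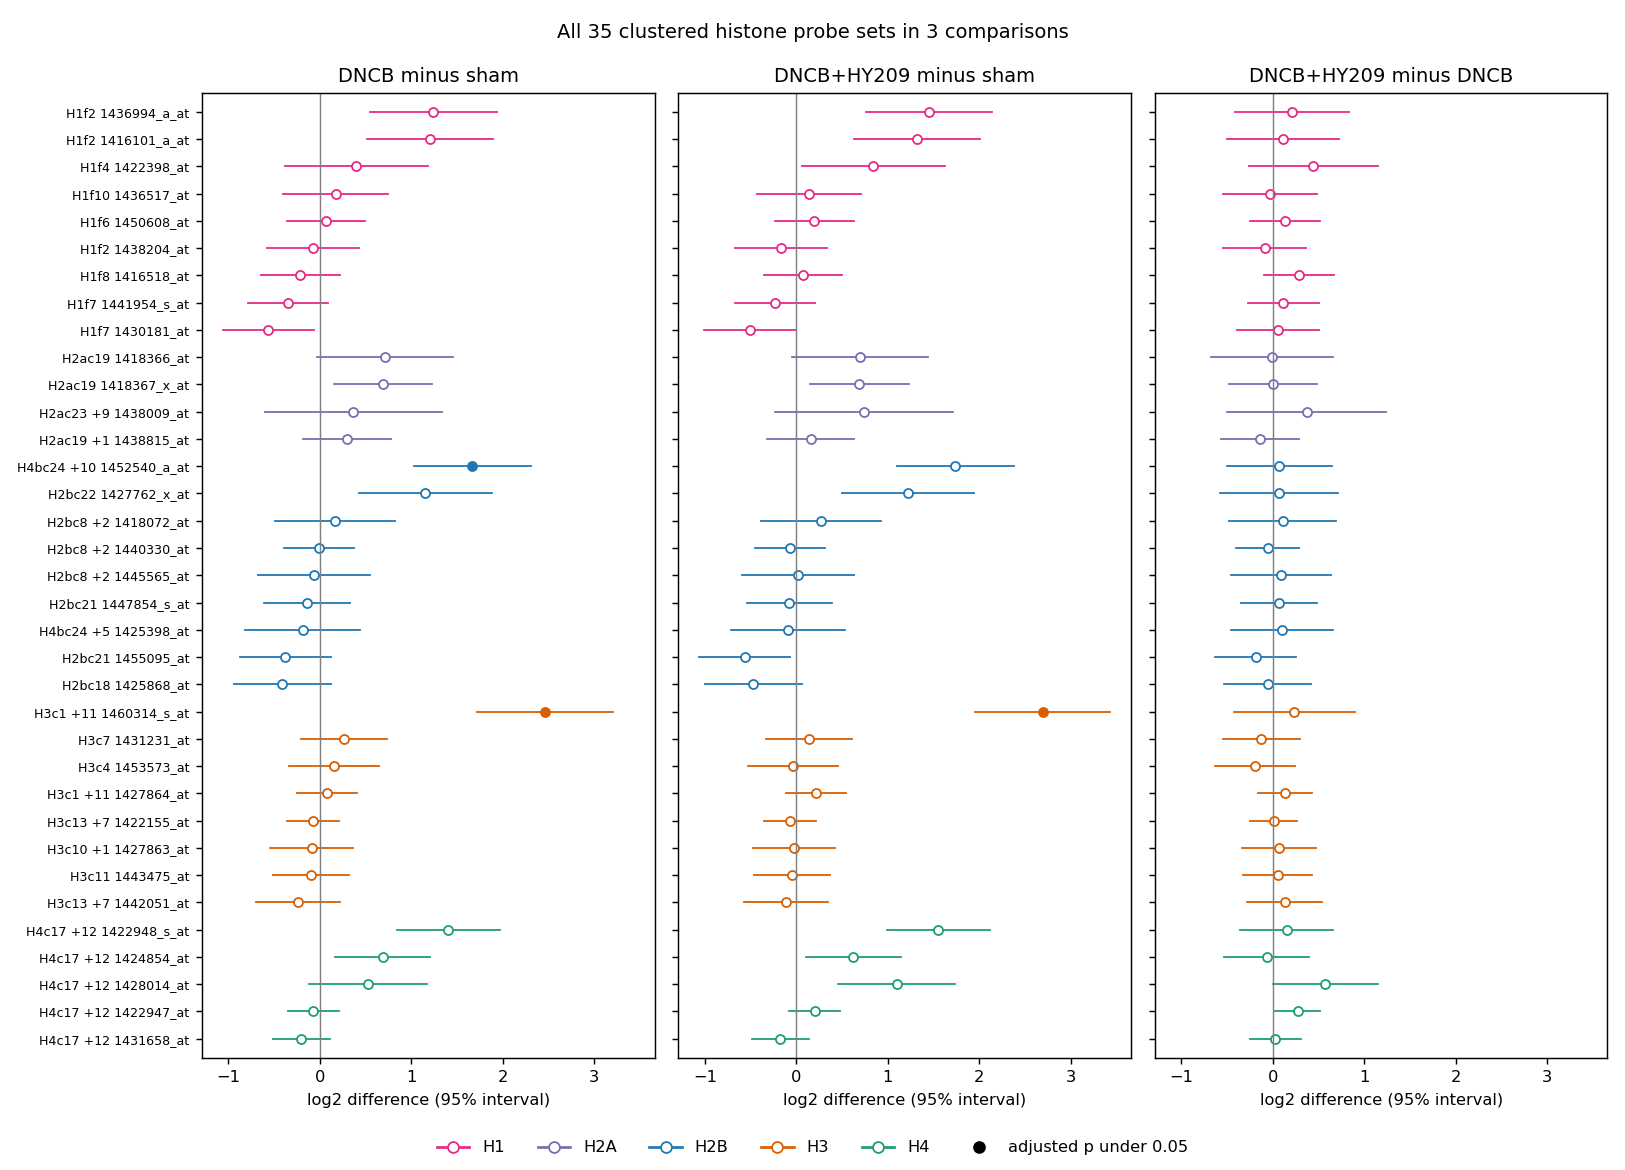
Log2 difference between group means (horizontal axis) of all 35 probe sets in the 3 comparisons, with 95% intervals from limma; colours give the histone class and filled points passed the adjusted threshold. The DNCB minus sham and DNCB+HY209 minus sham panels, which share the sham arrays, have 2 and 1 filled points, and the DNCB+HY209 minus DNCB panel has none.

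Seen over the whole family, 19 of the 35 DNCB minus sham differences were positive and 16 negative, where 20862 of all 45037 were positive. The median difference was 0.08, with a range from -0.56 to 2.46, where the median over all probe sets was -0.03. A small set of probe sets accounts for the upper end of that range. The 9 members whose names end in _a_at, _s_at or _x_at, which mark probes shared by several transcripts or genes, had a median of 1.20, and 7 of them were higher on every DNCB array. The 26 members ending in _at alone had a median of -0.04, and 5 of them were higher on every DNCB array, beside 14.2% of all 45037 probe sets. Over all 8955 probe sets of the shared kind the median was 0.09, and 1887 of them were higher on every DNCB array. The shared kind thus also had a higher median than all probe sets (-0.03), so the contrast is not particular to histones. The difference between the 2 kinds of member was noticed after the values were seen and was not tested.

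**Figure D3:**
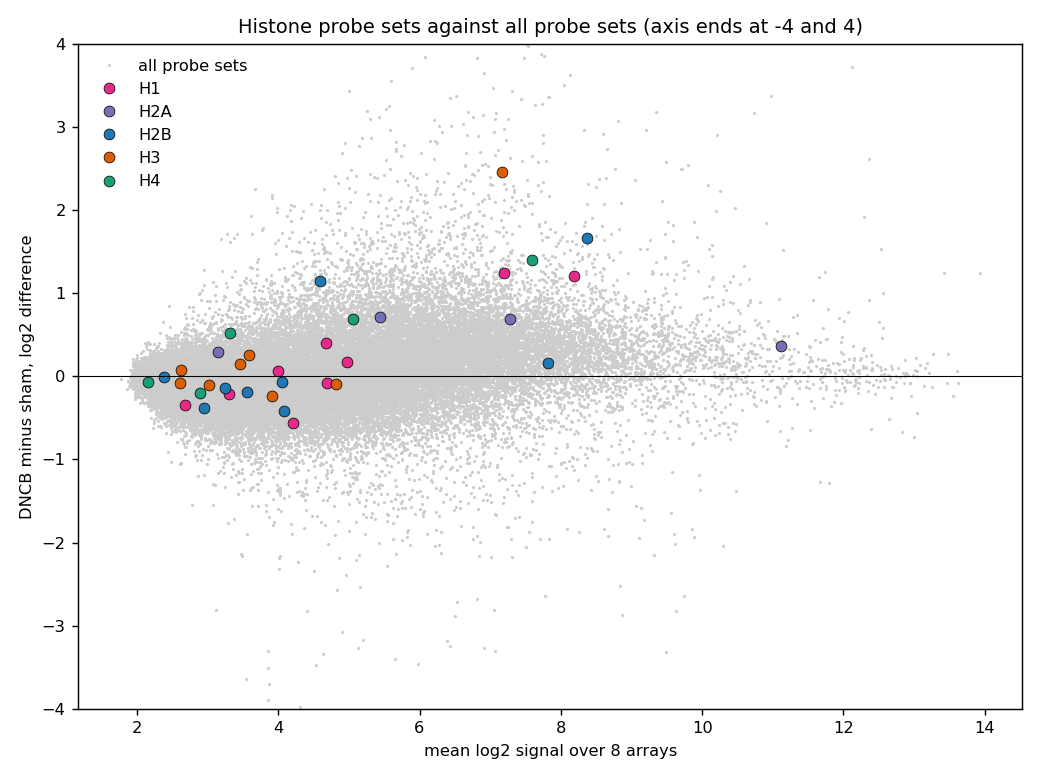
DNCB minus sham log2 difference (vertical axis) against the mean log2 signal over the 8 arrays (horizontal axis); grey points are all probe sets, coloured points are the 35 histone probe sets by class, and grey points beyond the ends of the axis are not drawn. Of the 19 histone probe sets whose mean lies at or below the median of all probe sets, 4.16, the differences run from -0.41 to 0.52, and the larger positive differences lie to the right of it.

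Of the members, 16 had a mean signal over the 8 arrays above the median of all probe sets and 19 did not. Differences ran from -0.56 to 2.46 among the former and from -0.41 to 0.52 among the latter. The mean includes the treated arrays, so a probe set that is high only after DNCB is more likely to fall in the former, and the split is given as a description. Both called probe sets, 1460314_s_at and 1452540_a_at, are among the 16.

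No histone probe set differed past the threshold between skin given HY209 gel and skin given vehicle after DNCB. Against DNCB with vehicle, limma called 0 of the 35, and 0 (0%) of all 45037. At an unadjusted p under 0.05 it called 1 member, 1422947_at, and 1.52% of all probe sets. Arrays of the DNCB+HY209 group lay above all DNCB arrays on that 1 member, where 2.56% of all probe sets did so, and below them on 0 members, against 2.81% of all. Its values were 1.86, 2.23 and 2.01 on the DNCB arrays and 2.35, 2.31 and 2.26 on the DNCB+HY209 arrays, a difference of 0.27 (SE 0.11, limma adjusted p = 1.00). This is among the lowest signals on the arrays, and its identity as H4 or H3c1 is the one that is not settled.

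Differences between DNCB+HY209 and DNCB ran from -0.19 to 0.57 over the 35, with 25 positive, 10 negative and a median of 0.07, where the median of all probe sets was -0.0028. Of all 45037 probe sets, 22193 had a positive difference. For 1460314_s_at (H3) the difference was 0.23, with a 95% interval from -0.43 to 0.89. The interval was -0.50 to 0.64 for 1452540_a_at (H2B) and -0.35 to 0.65 for 1422948_s_at (H4). For the H1f2 probe sets 1416101_a_at and 1436994_a_at it was -0.50 to 0.73 and -0.41 to 0.83. Taken 1 at a time, these intervals leave out a fall of 1 log2 unit, and they leave smaller changes in either direction possible. The probe sets have the highest DNCB minus sham differences, which use the same DNCB arrays. The intervals are not adjusted for that choice or for their number. The highest difference was 0.57 on 1428014_at (H4, SE 0.26), whose arrays overlapped, and the next was 0.44 on 1422398_at (H1f4, SE 0.32).

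H1f4 read 5.51, 4.89 and 4.77 on the DNCB+HY209 arrays, and H1f10 read 5.49, 4.69 and 4.83, so the first array of that group was the high one on both. The H2A probe set 1438009_at read 11.84, 11.40 and 11.07 there. Values for the other named members were 4.36, 4.03 and 3.94 for H1f7 on 1430181_at, 4.80, 4.70 and 4.34 for H1f2 on 1438204_at, 5.04, 4.72 and 4.74 for 1427863_at and 3.95, 3.75 and 4.09 for 1442051_at (both H3). None of these separated the DNCB+HY209 arrays from the DNCB arrays.

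Skin given DNCB and HY209 can also be set against sham, with the same 2 sham arrays as in the first comparison, so the pair of comparisons is not independent. Limma called 1 member higher and 0 lower, where it called 0.155% of all probe sets. The called one was again 1460314_s_at (H3), by 2.69 (SE 0.33, 6.46-fold, limma adjusted p = 0.0197). That adjusted p was 0.126 without the second sham array, 0.149 and 0.0615 without DNCB+HY209 array 2 or 3, and 0.127 with the spike-in signal as a covariate. Next came 1422948_s_at (H4), by 1.55 (SE 0.25, adjusted p = 0.0539 by limma), and 1452540_a_at (H2B), by 1.73 (SE 0.29, adjusted p = 0.0557 by limma). The arrays did not overlap on 13 members that were higher, where 17.4% of all probe sets did so, and on 4 that were lower, against 20.3% of all. The median difference was 0.14, where that of all probe sets was -0.03.

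The 13 include H1f2, by 1.32 (SE 0.31) on 1416101_a_at and 1.45 (SE 0.31) on 1436994_a_at, H2bc22 on 1427762_x_at by 1.22 (SE 0.33) and H2ac19 by 0.69 (SE 0.24) and 0.70 (SE 0.34). They also include 4 of the 5 H4 probe sets, among them 1428014_at by 1.10 (SE 0.29), and H1f4 by 0.84 (SE 0.35). Some of these sizes changed without single arrays, with the spike-in covariate or after quantile normalization. H1f4 differed by 0.32 without the first sham array and 1.36 without the second, and H2bc22 by 1.87 and 0.58 in that order. With the spike-in covariate 1428014_at differed by 0.54 and 1418366_at by 0.15, and after quantile normalization 1418367_x_at differed by 0.38. H1f10 on 1436517_at and H3c7 on 1431231_at, which were higher on every DNCB array, overlapped with sham here. The 4 that were lower are both H1f7 probe sets, H2bc18 on 1425868_at and H2bc21 on 1455095_at.

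Genes that act on histone messages and on DNA replication did not pass the test in any of the 3 comparisons. The 5 lists cover transcription and 3′ processing of histone messages (16 of 16 genes measured), replication-independent histone variants (9 of 10), histone chaperones (15 of 18), S phase and DNA replication (28 of 29) and mitosis (15 of 16), with each gene read on its brightest probe set. Limma called 0 genes of each list in each comparison, at the backgrounds given above. Median DNCB minus sham differences were 0.29, 0.21, 0.20, 0.19 and 0.44 in that order. Positive differences were found for 22 of 28 S phase and 14 of 15 mitotic genes. Of the S phase genes 5 of 28, and of the mitotic genes 2 of 15, were higher on every DNCB array than on both sham arrays, beside 14.2% of all probe sets. Of these genes, 25 of 28 and 15 of 15 had a mean signal above the median of all probe sets. Among the 22518 probe sets above that median, 13746 had a positive DNCB minus sham difference and 4878 were higher on every DNCB array. For DNCB+HY209 against sham the counts were 13 of 28 and 8 of 15, beside 17.4% of all and 6244 of those 22518.

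Slbp, which encodes the stem-loop binding protein, read 7.41 and 6.80 on the sham arrays and 6.79, 7.50 and 7.13 on the DNCB arrays (difference 0.04, SE 0.29). Npat, the coactivator of histone gene transcription, differed by 0.21 (SE 0.32), and by -0.22 on its other probe set. The polyadenylated variant genes H2az1 and H3f3b differed by 0.23 (SE 0.31) and -0.06 (SE 0.45). Mcm2, a subunit of the replicative helicase, read 7.81 and 7.31 on the sham arrays and 7.78, 8.10 and 8.08 on the DNCB arrays (0.42, SE 0.26). The other Mcm2 probe set differed by 0.94, so the size is not settled. Pcna, the sliding clamp, differed by -0.05 (SE 0.35). The proliferation marker Mki67 read 9.85 and 8.30 on the sham arrays and 8.54, 9.27 and 9.51 on the DNCB arrays (0.03, SE 0.43), and Top2a, the topoisomerase of mitotic chromosomes, differed by 0.44 (SE 0.41). Over its 3 probe sets Top2a ran from -0.46 to 0.44. The highest differences of these 2 lists, named after their values were seen, were those of Rrm2, a subunit of ribonucleotide reductase, by 1.24 (SE 0.40, limma adjusted p = 0.260), and Birc5, the mitotic protein survivin, by 1.05 (SE 0.38, limma adjusted p = 0.303). Both had every DNCB array above both sham arrays. For Slbp, Mcm2 and Mki67, on their brightest probe sets, the first sham array lay within or above the DNCB arrays. It stood above the second sham array on each of them.

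**Figure D4:**
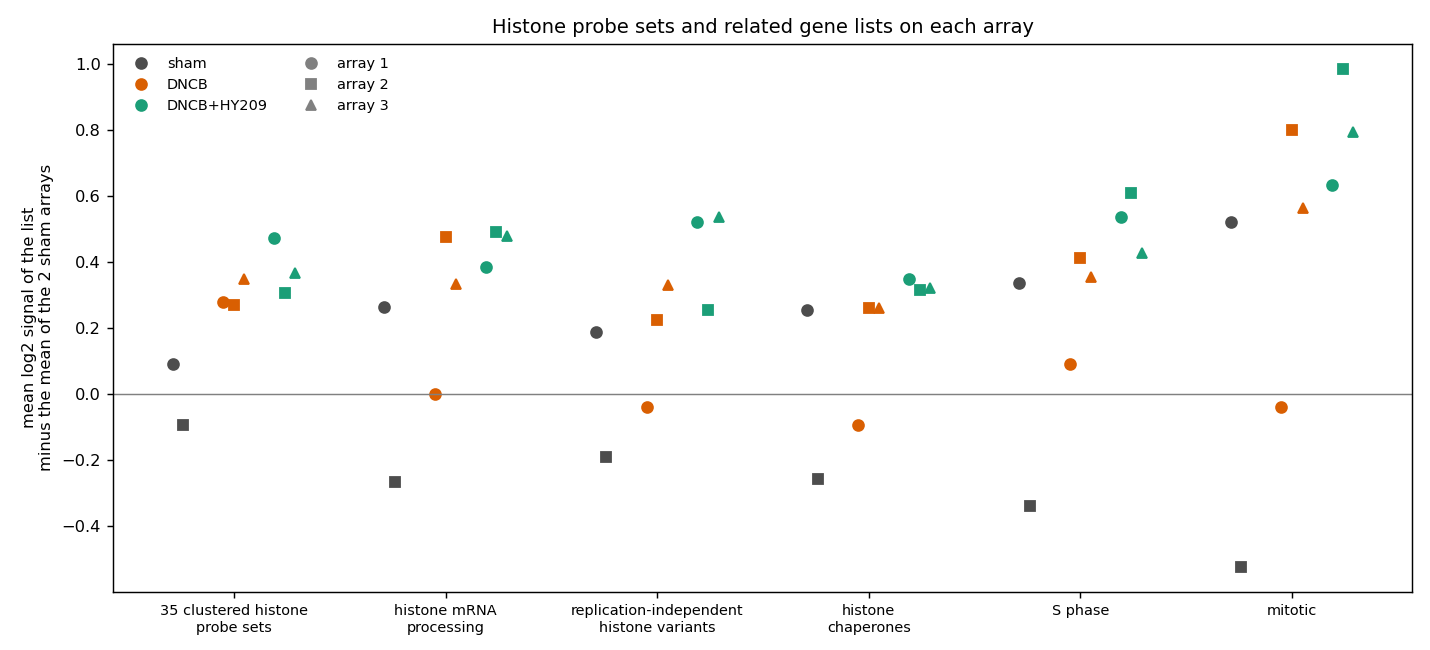
Mean log2 signal of the 35 histone probe sets and of 5 related gene lists on each array, minus the mean of the 2 sham arrays (vertical axis); colours are groups and shapes are array numbers. For the histone probe sets the DNCB points lie at 0.27 to 0.35 and the sham points at -0.09 and 0.09, whereas the first sham point of the S phase and mitotic lists, at 0.34 and 0.52, lies among the DNCB points. The histone mean takes every probe set, dim ones included, and the lists only the brightest probe set of each gene, so the measures are not alike.

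The mean over all 35 histone probe sets was 0.28, 0.27 and 0.35 above the sham mean on the DNCB arrays and 0.47, 0.31 and 0.37 above it on the DNCB+HY209 arrays, with the sham arrays at 0.09 and -0.09. Mean log2 signals of the S phase genes were 6.52 and 5.84 on the sham arrays, 6.27, 6.59 and 6.54 on the DNCB arrays and 6.72, 6.79 and 6.61 on the DNCB+HY209 arrays. For the mitotic genes they were 6.91 and 5.86, then 6.34, 7.18 and 6.95, and then 7.02, 7.37 and 7.18 in the same order. Sham and DNCB overlapped on both lists. Between DNCB+HY209 and DNCB, 28 of 28 S phase genes and 15 of 15 mitotic genes had a positive difference, with medians of 0.23 and 0.38 and 0 called. Positive differences were also found for 22193 of all 45037 probe sets, and for 12879 of the 22518 with a mean signal above the median.

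Markers of the cell types that skin can hold also differed between the arrays. The summed log2 level of 9 neutrophil markers was 36.79 to 37.31 on the sham arrays, 46.79 to 52.17 on the DNCB arrays and 43.27 to 48.16 on the DNCB+HY209 arrays, with 2 of 9 called higher after DNCB. A few genes carried that sum: 5 of the 9 differences were positive and 4 negative, with a median of 0.35 and a highest of 6.01. That of 10 macrophage and monocyte markers was 54.88 to 56.79, 58.76 to 72.02 and 57.31 to 64.88, with 0 called. For these, 10 of 10 DNCB minus sham differences were positive (median 1.17). Between DNCB+HY209 and DNCB, 10 of 10 were negative (median -0.63). Keratinocyte markers (7 genes) ran from 76.99 to 77.43, 78.65 to 84.64 and 73.79 to 84.33 with 0 called, and fibroblast markers (8 genes) from 64.16 to 68.55, 67.88 to 77.08 and 63.09 to 66.82 with 2 called higher after DNCB. The fibroblast DNCB minus sham differences ran from -0.69 to 3.18, with 6 positive and 2 negative. Between DNCB+HY209 and DNCB, 8 of 8 fibroblast differences were negative (median -0.99), with 0 called. Hair follicle markers (20 genes) differed between the sham arrays, at 183.98 and 129.83, and ran from 105.46 to 148.28 on the DNCB arrays and 122.36 to 168.33 on the DNCB+HY209 arrays, with 0 called. Their DNCB minus sham differences were negative for 19 and positive for 1 (median -1.59). Between DNCB+HY209 and DNCB, 20 of 20 were positive (median 0.89). Muscle markers (14 genes) ran from 127.66 to 147.52, 131.80 to 161.42 and 145.51 to 151.05, with 1 called higher after DNCB. Their DNCB minus sham differences ran from -1.15 to 4.45, with 12 positive and 2 negative. T cell (8 genes), B cell (4) and erythroid (3) lists had 0 called. Of all probe sets, 0.442% were called for DNCB against sham. The part of these cells in the histone differences was not tested.

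Technical controls differed as well. The mean log2 level of 7 bacterial spike-in probe sets was 11.35 and 12.01 on the sham arrays, 11.09, 9.67 and 11.21 on the DNCB arrays and 11.26, 10.36 and 10.30 on the DNCB+HY209 arrays, so the sham arrays were the highest. The spike-in level thus went partly with group, and a fit with it cannot tell its part from that of the treatment. With that level as a covariate the 1460314_s_at difference was 2.23, as given above, and 0 histone probe sets were called. The ratio of the 3′ to the 5′ Gapdh probe sets, a measure of RNA integrity, was 4.46 and 2.81 on the sham arrays, 2.79, 2.10 and 7.35 on the DNCB arrays and 3.24, 2.62 and 2.31 on the DNCB+HY209 arrays, and these overlapped. Correlations between arrays over all probe sets ran from 0.965 to 0.986 within groups and from 0.920 to 0.987 between them.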

How the data were processed

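RNA from the skin samples had been hybridised by the submitters to 8 Affymetrix arrays. The labels name the 430A array, whereas the table has 45101 probe sets, as the larger array of that generation does. The deposited values are log2 signals per probe set, a scale taken from their spread. Affymetrix Expression Console and MAS5 appear in the submitters' processing notes, and the order of steps and the normalization between arrays are not given in the sources used here. The number of arrays limits the precision. Symbols came from the platform annotation (34945 probe sets with 1, 932 with several, 9160 unlisted), and 64 control probe sets were left out. Values were used as deposited, without a filter on level, and fitted with limma 3.58.1 in R 4.3.3 (lmFit, eBayes with trend), all 8 arrays together, two-sided, with Benjamini-Hochberg adjustment and a threshold of 0.05; the procedure was tested on simulated data. Tables and plots were made in Python 3.11.15. The members, lists and settings were chosen with earlier results of these data known. Values on every array are given for the 3 brightest members of each class, for the 5 highest and 5 lowest differences among members above the median level, and for called members. Alternatives covered normalization, filters, probe sets per gene, the arrays in the fit, the replicate number as a block, the variance trend, 2 quality covariates and leaving out each array.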

Additional observations from a re-analysis of the deposited data

How the results depend on the processing

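No sign of a called histone difference reversed under any setting tried. For DNCB against sham the count of 2 became 1 with arrays centred on their medians or with only the compared groups in the fit, 0 with the spike-in covariate, 3 with either filter on level, 1 probe set per gene, no intensity trend or the Gapdh covariate, and 0 to 3 when single arrays were left out. For DNCB+HY209 against sham the count of 1 became 3 with the filter at the 75th percentile or 1 probe set per gene, 2 without the intensity trend, 0 with the spike-in covariate, and 0 to 2 when single arrays were left out. For DNCB+HY209 against DNCB it was 0 throughout.

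With the replicate number as a block, 0 histone probe sets were called in each comparison (39 of all probe sets for DNCB against sham, where 199 were called without it). Deviations from the group means correlated from -0.58 to 0.25 between same-numbered arrays and from -0.65 to 0.59 between differently numbered ones. Such deviations cancel within each small group, which constrains the correlations. This check therefore cannot decide whether same-numbered arrays have more in common than a number.

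The median difference over histone probe sets rose with a filter on level. For DNCB against sham it was 0.40 (array median) and 1.20 (75th percentile), and for DNCB+HY209 against sham it was 0.69 and 1.32. Each filter keeps a probe set that passes the level on any 2 arrays. A member can therefore pass on treated arrays alone, so these filtered medians are not independent of the differences. Leaving out single arrays gave 0.02 to 0.16 and -0.047 to 0.22; the negative value came without DNCB+HY209 array 1. Non-overlap counts, whose alternatives were chosen after seeing the data, ran from 11 to 15 for DNCB against sham and 13 to 16 for DNCB+HY209 against sham, while the share of all probe sets ran from 14.2% to 29.5% and from 16.8% to 32.4%. For DNCB+HY209 against DNCB the count of 1 became 2 with median centring and 2 to 6 when single arrays were left out, where the share of all probe sets was 5.6% to 9.14% in place of 2.56%. Over all probe sets, DNCB against sham gave 316 calls after quantile normalization, 487 with the Gapdh ratio and 36 with the spike-in signal as a covariate, and 30 without the second sham array. The cause of these shifts was not tested.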
